A study of Homo sapiens with 6 samples.

Results

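The 40 genes described here are NRF2 (NFE2L2) and its inhibitor KEAP1, NRF2 targets, and the enzymes of the glutathione, thioredoxin, peroxiredoxin, NADPH, superoxide, iron and ferroptosis pathways. They were taken by gene symbol from a list chosen with earlier results of these data known, which may have affected the counts below. All 40 were found among the 54308 genes of the deposited table with a value in each of the 6 libraries. RNA was taken from 143B cells, a human osteosarcoma cell line, carrying a vector plasmid (vector control, VC, 3 libraries) or a CNTNAP4 KO plasmid (KO, 3 libraries). The label gives both groups 48 h of transfection, while the study's methods describe CRISPR/Cas9 deletion followed by sorting and expansion of single-cell colonies. The methods thus describe the cells as clonal, so a difference between KO and VC cannot be told apart from a difference between clones, and which clones the independent RNA samples came from is not given in the sources used here. The question of the comparison was what the loss of CNTNAP4, a transmembrane protein of the neurexin superfamily, does to the transcriptome.

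NRF2 is a transcription factor that KEAP1 holds in check by presenting it to the CUL3 ubiquitin ligase. When KEAP1 is modified by electrophiles or oxidants, NRF2 accumulates, pairs with small MAF proteins and binds antioxidant response elements in its target genes, where BACH1 competes for the same sites. Its targets make and recycle glutathione, reduce thioredoxin, supply NADPH, break down heme and store iron. The level of NFE2L2 mRNA is therefore only one of the steps that set NRF2 activity, and neither the protein nor its place in the cell was measured here.

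The sequences below show where letters that match a known regulatory element lie in the members' own promoters. RefSeq promoter windows (GRCh38.p14, 250 bases before to 50 after a gene's start) were found for 32 of the 40 members, as 44 windows because some genes have several starts. No window was given for SOD1, HMOX1, FTH1, PRDX1, PRDX6, GSS, GSR and ABCC1. The antioxidant response element was searched as TGACNNNGC on both strands and was present in 9 of the 44 windows (20.5%), against 13.3% of the 35116 windows of all genes. The match lay before the start in 7 members, of which 2 rose in KO (ME1 and AIFM2), none fell, and 5 did not pass the test (PGD, GCLM, GSTP1, TXNRD1 and KEAP1). ME1, AIFM2 and GSTP1 held the same letters, TGACTCAGC, a version present in 0.561% of all windows that also contains the AP-1 element TGACTCA. GCLM and KEAP1 shared TGACTAAGC, present in 0.103% of all windows. OSGIN1, which rose, held the AP-1 letters outside an antioxidant response element, and 4.95% of all windows hold these letters within such an element or outside it. The match of PGD and further matches in ME1, TXNRD1 and KEAP1, as well as one after the start of MGST1, are not shown. Of the 32 members with a window 8 rose, 2 fell and 22 did not pass. These 2 versions and the AP-1 letters were looked up after the matches had been seen. Each stretch is shown from 5′ to 3′ on the gene's strand, with bases counted from the gene's start, with the match in capitals, on the reverse strand for AIFM2, GCLM, KEAP1 and CHAC1.
ME1 (chr6:83431164-83431204, minus strand, match from base -137): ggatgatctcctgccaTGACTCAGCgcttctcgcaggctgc
AIFM2 (chr10:70132826-70132863, minus strand, match from base -22): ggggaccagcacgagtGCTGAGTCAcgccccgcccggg
GSTP1 (chr11:67583730-67583770, plus strand, match from base -66): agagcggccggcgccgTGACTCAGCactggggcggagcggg
GCLM (chr1:93909440-93909480, minus strand, match from base -34): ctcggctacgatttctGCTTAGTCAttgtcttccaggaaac
KEAP1 (chr19:10502778-10502818, minus strand, match from base -31): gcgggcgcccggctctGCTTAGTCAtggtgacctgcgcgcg
TXNRD1 (chr12:104215664-104215704, plus strand, match from base -99): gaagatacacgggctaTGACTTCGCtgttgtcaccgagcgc
OSGIN1 (chr16:83953127-83953165, plus strand, AP-1 match from base -97): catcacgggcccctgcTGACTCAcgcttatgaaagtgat
CHAC1 (chr15:40953246-40953285, plus strand, match from base -209): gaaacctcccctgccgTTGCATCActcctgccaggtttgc

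The last of these is the single match among the members to the amino acid response element, searched as TGATGNAA, which ATF4 and CHOP bind in genes of the integrated stress response and which 3.62% of all windows hold. CHAC1 is the member with the largest change between the groups. A match is a description of letters and was not tested for binding, and the absence of one from a window says nothing of more distant sites.

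Of the 40 members, 12 passed the test between KO and VC (30.0%), close to the 32.9% of all 19306 tested genes that passed, so the number of members called is not in itself a result about them. The test was limma's moderated linear model, with two-sided p-values adjusted by the Benjamini-Hochberg method over all tested genes and a threshold of 0.05. Every difference below is a log2 fold change, KO minus VC. By direction, 9 members were higher in KO, where 13.1% of all tested genes were called higher, and 3 were lower, where 19.8% were. With median-centred libraries the split was 13 higher and 0 lower. Centring also moved all 19306 tested genes, from 2526 higher and 3828 lower to 3005 higher and 3233 lower. The median log2 fold change of the members was 0.0445, and that of all tested genes was -0.13. Adding 1 to the linear signal raised the median of all genes by 0.103, and the members' median then exceeded it by 0.067, against 0.17 on the deposited scale. The groups did not overlap in 24 members (60.0%), against 57.1% of all tested genes. KO lay above VC in 17 members (21.5% of all tested genes) and below VC in 7 (35.6% of all tested genes). The members that rose were NFE2L2, HMOX1, BLVRB, OSGIN1, CHAC1, PRDX5, ME1, AKR1C1 and AIFM2, and those that fell were TXN, PRDX1 and PRDX2. Of these, 4 passed with a change of 2-fold or more, HMOX1, BLVRB, CHAC1 and AKR1C1, as 9.53% of all tested genes did. The other 28 members had log2 fold changes between -0.37 and 0.26, with 95% intervals that lay between -0.73 and 0.60.

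**Figure D1:**
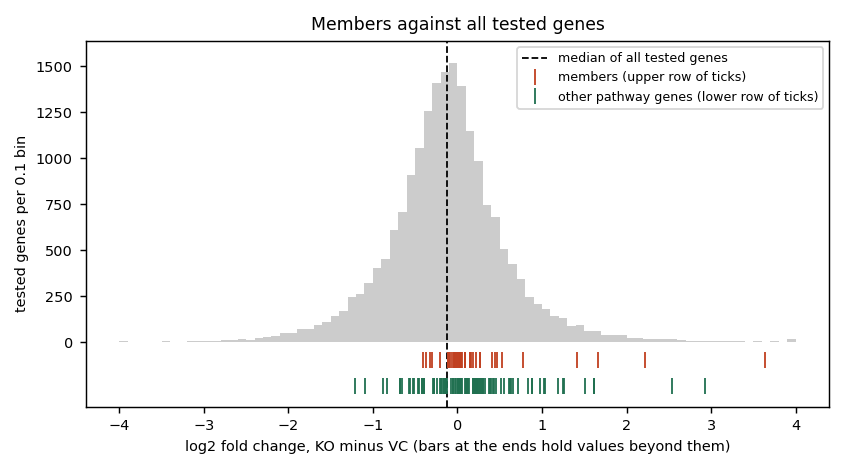
Number of tested genes (y axis) by log2 fold change, KO minus VC (x axis, bins of 0.1), with ticks for the 40 members and for 97 other pathway genes under the bars and a dashed line at the median of all tested genes, -0.13. Most members lie near 0 and CHAC1, at 3.64, lies farthest to the right.

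NFE2L2 mRNA was higher in KO, and KEAP1 mRNA did not pass the test. NFE2L2 had log2 signals of 4.35, 4.45 and 4.37 in VC replicates 1, 2 and 3 and of 4.87, 5.09 and 4.81 in KO replicates 1, 2 and 3. All KO libraries lay above all VC libraries, and the log2 fold change was 0.53 (standard error, SE, 0.098, limma adjusted p = 0.0182, n = 3 per group), or 1.45-fold on the linear scale. The call was lost when VC replicate 1, 2 or 3 was left out (adjusted p = 0.0683, 0.0507 and 0.0691), while the fold change stayed between 0.45 and 0.59 with any single library left out. KEAP1 had 4.44, 4.26 and 4.36 in VC and 4.41, 4.22 and 4.41 in KO. Its groups overlapped, with a log2 fold change of -0.0059 (95% interval -0.24 to 0.23, adjusted p = 0.965), and its sign turned to 0.078 with median-centred libraries.

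A further group of members held the heme and quinone genes HMOX1, BLVRB and NQO1 together with the NRF2 targets OSGIN1 and SRXN1. Of these 5 genes 3 rose (13.1% of all tested genes were called higher). All 5 had every KO library above every VC library (21.5% of all tested genes did). This group does not hold all the NRF2 targets among the members. Over all 40 members KO lay above VC in 17 and below VC in 7, against 21.5% and 35.6% of all tested genes. HMOX1, heme oxygenase 1, which opens the heme ring to biliverdin, iron and carbon monoxide, had log2 signals of 1.22, 0.82 and 1.18 in VC and 2.42, 3.17 and 2.62 in KO. The lowest KO library was thus above the highest VC library by more than the range of either group, and the log2 fold change was 1.66 (SE 0.23, adjusted p = 0.0114), or 3.16-fold. HMOX1 lies on chromosome 22, where the median log2 fold change of 447 tested genes was 0.29. BLVRB, biliverdin reductase B, which acts downstream of heme oxygenase, had 2.88, 2.61 and 2.92 in VC and 3.95, 4.53 and 4.15 in KO. Its log2 fold change was 1.41 (SE 0.18, adjusted p = 0.0101), or 2.66-fold, on chromosome 19, where the median was -0.051. For both genes KO replicate 2 was the highest library and VC replicate 2 the lowest.

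OSGIN1, an oxidative stress-induced growth inhibitor, had log2 signals of 0.75, 0.47 and 0.73 in VC and 1.35, 1.39 and 1.55 in KO, a log2 fold change of 0.78 (SE 0.11, adjusted p = 0.0119). HMOX1, BLVRB, OSGIN1 and CHAC1 were the 4 of the 12 called members whose adjusted p remained under 0.05 with each of the 6 libraries left out. Their largest limma adjusted p in these fits were close to the threshold, at 0.0459, 0.0441, 0.0463 and 0.0410. The share of all tested genes that remained under 0.05 in every such fit was not counted. NQO1, the quinone oxidoreductase that is widely read as an NRF2 reporter, had 4.84, 4.91 and 4.82 in VC and 4.94, 5.09 and 4.97 in KO. The KO libraries were the higher ones, but the gap was small, with a log2 fold change of 0.14 (95% interval -0.048 to 0.34, adjusted p = 0.193). SRXN1, sulfiredoxin, which repairs over-oxidized peroxiredoxins, had a log2 fold change of 0.18 (95% interval 0.0014 to 0.37, adjusted p = 0.103). It lies on chromosome 20, whose 491 tested genes had a median of -0.25, and with median-centred libraries its adjusted p was 0.0358.

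**Figure D2:**
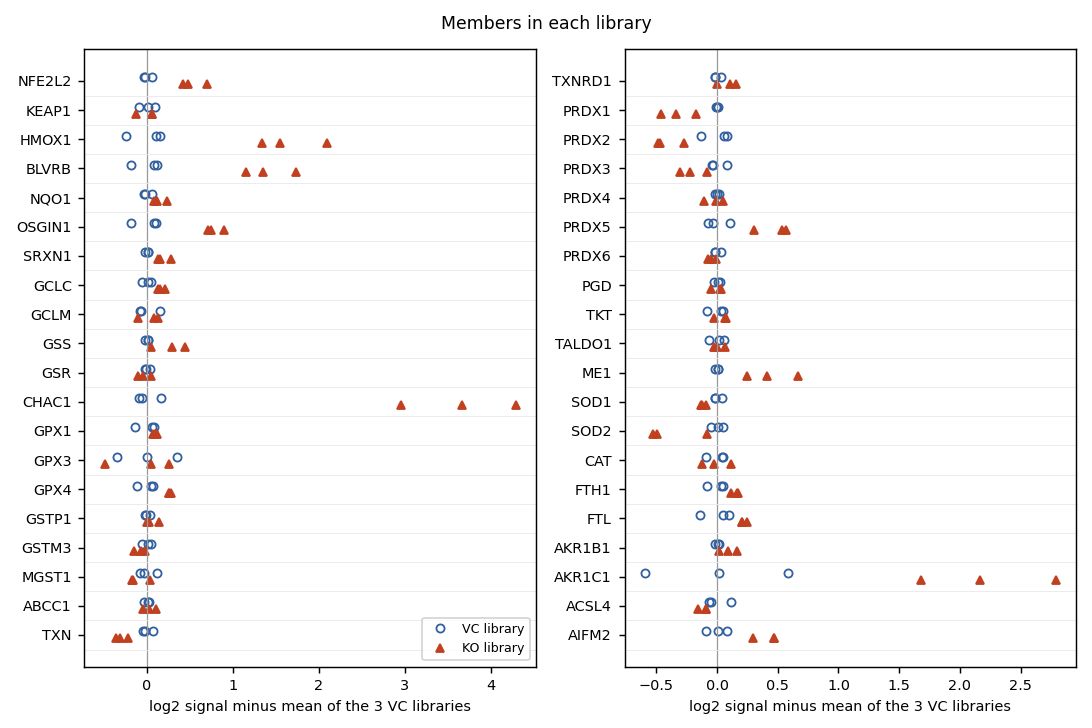
Log2 signal of each of the 40 members in each library, minus the mean of the 3 VC libraries (x axis), with open circles for VC and filled triangles for KO. The x axes of the left and right panels differ in range, and the KO triangles of CHAC1, AKR1C1, HMOX1 and BLVRB stand farthest from the VC circles.

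Of the 5 members of glutathione synthesis and turnover CHAC1 rose and the other 4 did not pass the test. CHAC1, a γ-glutamylcyclotransferase that degrades glutathione inside the cell and a known ATF4 target, had log2 signals of -0.63, -0.89 and -0.85 in VC and 2.87, 3.50 and 2.16 in KO. KO replicate 2 was highest and KO replicate 3 lowest, and every KO library was far above every VC library. The log2 fold change was 3.64 (SE 0.35, adjusted p = 0.0079), or 12.4-fold, and on the log2(signal + 1) scale it was 2.39. GCLC, the catalytic subunit of glutamate-cysteine ligase, the rate-limiting enzyme of glutathione synthesis, had a log2 fold change of 0.16 (95% interval -0.010 to 0.33, adjusted p = 0.12). Its modifier subunit GCLM had 2.82, 3.04 and 2.81 in VC and 2.97, 3.01 and 2.78 in KO. The GCLM libraries overlapped, with a log2 fold change of 0.032 (95% interval -0.24 to 0.30, adjusted p = 0.838). GSS, glutathione synthetase, had 0.26 (adjusted p = 0.133) with every KO library above every VC library, and an adjusted p of 0.0197 without KO replicate 1. GSR, which reduces oxidized glutathione with NADPH, had -0.036 (95% interval -0.22 to 0.14, adjusted p = 0.721), which turned to 0.048 with median-centred libraries. GSS lies on chromosome 20 and GSR on chromosome 8, whose tested genes had medians of -0.25 and -0.32.

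None of the 3 glutathione peroxidases or of the 4 genes for glutathione conjugation and export passed the test. GPX4, the selenoenzyme that reduces lipid hydroperoxides and restrains ferroptosis, had log2 signals of 6.57, 6.40 and 6.60 in VC and 6.78, 6.80 and 6.77 in KO. The KO libraries lay above the VC libraries and close to each other, and the log2 fold change was 0.26 (95% interval 0.061 to 0.46, adjusted p = 0.0559). Its adjusted p was 0.0265 with median-centred libraries and 0.0173 when genes below the median of mean signal were left out, and GPX4 passed in neither the fit with a replicate block (0.13) nor any fit that left out a library (0.0666 to 0.13). GPX1, the abundant cytosolic enzyme, had a log2 fold change of 0.094 (95% interval -0.12 to 0.31), and the secreted GPX3 had -0.067 (95% interval -0.73 to 0.60), which turned to 0.017 with median-centred libraries. GSTP1, a glutathione transferase, had 8.45, 8.44 and 8.49 in VC and 8.60, 8.48 and 8.46 in KO, a log2 fold change of 0.052 (95% interval -0.13 to 0.23). GSTM3 (-0.083), the membrane-bound MGST1 (-0.10) and the conjugate exporter ABCC1 (0.027) likewise had overlapping groups, with adjusted p of 0.414, 0.444 and 0.793.

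In the thioredoxin and peroxiredoxin system 3 genes fell, 1 rose and 4 did not pass the test, where 19.8% of all tested genes were called lower and 13.1% higher. TXN, thioredoxin, the disulfide reductase that feeds electrons to peroxiredoxins, had log2 signals of 7.61, 7.70 and 7.59 in VC and 7.41, 7.27 and 7.32 in KO. All KO libraries were under all VC libraries, and TXN fell by 0.30 on the log2 scale (SE 0.076, adjusted p = 0.0362). Its reductase TXNRD1, which uses NADPH, had a log2 fold change of 0.086 (95% interval -0.099 to 0.27, adjusted p = 0.394) with overlapping groups. PRDX1, a cytosolic peroxiredoxin, had 8.52, 8.54 and 8.52 in VC and 8.35, 8.06 and 8.19 in KO, a fall of 0.32 on the log2 scale (log2 fold change -0.32, SE 0.094, adjusted p = 0.0495). The VC libraries of PRDX1 were nearly equal and the KO libraries spread more widely. PRDX2, its close cytosolic relative, had 3.51, 3.30 and 3.49 in VC and 2.95, 3.17 and 2.97 in KO (log2 fold change -0.41, SE 0.10, adjusted p = 0.0352).

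These 3 calls did not hold with median-centred libraries, where the log2 fold changes of TXN, PRDX1 and PRDX2 were -0.22, -0.24 and -0.33 and the adjusted p 0.0821, 0.0717 and 0.0655. Each had an adjusted p under 0.05 with only 1 library left out, 0.0209 for TXN and 0.0141 for PRDX1 without KO replicate 1 and 0.0351 for PRDX2 without KO replicate 2. Without variance moderation PRDX1 and PRDX2 had 0.0619 and 0.0532, and PRDX1 had 0.0548 with further quantile normalization. The other 5 fits that left out a library gave 0.0717 to 0.102 for TXN, 0.0848 to 0.130 for PRDX1 and 0.0530 to 0.110 for PRDX2. PRDX5, a peroxiredoxin found in mitochondria, peroxisomes and cytosol, moved the other way, from 6.75, 6.57 and 6.61 in VC to 6.95, 7.21 and 7.18 in KO. Its log2 fold change was 0.47 (SE 0.10, adjusted p = 0.0277), and it had an adjusted p of 0.0111 without KO replicate 1 and of 0.0613 to 0.0901 without any other single library. The mitochondrial PRDX3 had -0.20 (95% interval -0.43 to 0.021) with all KO libraries under all VC libraries, PRDX4 of the endoplasmic reticulum had -0.023, and PRDX6, which also reduces phospholipid hydroperoxides, had -0.042, with adjusted p of 0.131, 0.82 and 0.633. PRDX3 had an adjusted p of 0.0451 without KO replicate 1, and with median-centred libraries PRDX4 and PRDX6 turned to 0.060 and 0.042.

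Of the 4 NADPH-producing or pentose phosphate enzymes, ME1 rose and the other 3 had differences between 0.0029 and 0.037. ME1, cytosolic malic enzyme, had log2 signals of 2.50, 2.47 and 2.49 in VC and 2.74, 3.15 and 2.90 in KO. Every KO library was above every VC library, with a log2 fold change of 0.44 (SE 0.12, adjusted p = 0.0427). The adjusted p of ME1 was 0.0157 without KO replicate 1 and 0.0507 to 0.113 without any other single library, and 0.0675 without variance moderation. PGD, 6-phosphogluconate dehydrogenase, had 0.0029 (95% interval -0.16 to 0.17), TALDO1, transaldolase, had 0.014 (95% interval -0.16 to 0.19) and TKT, transketolase, had 0.037 (95% interval -0.15 to 0.22). The intervals of these 3 genes end below the log2 fold change of ME1, but they overlap its own 95% interval of 0.14 to 0.74. A difference between ME1 and these genes was not tested.

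**Figure D3:**
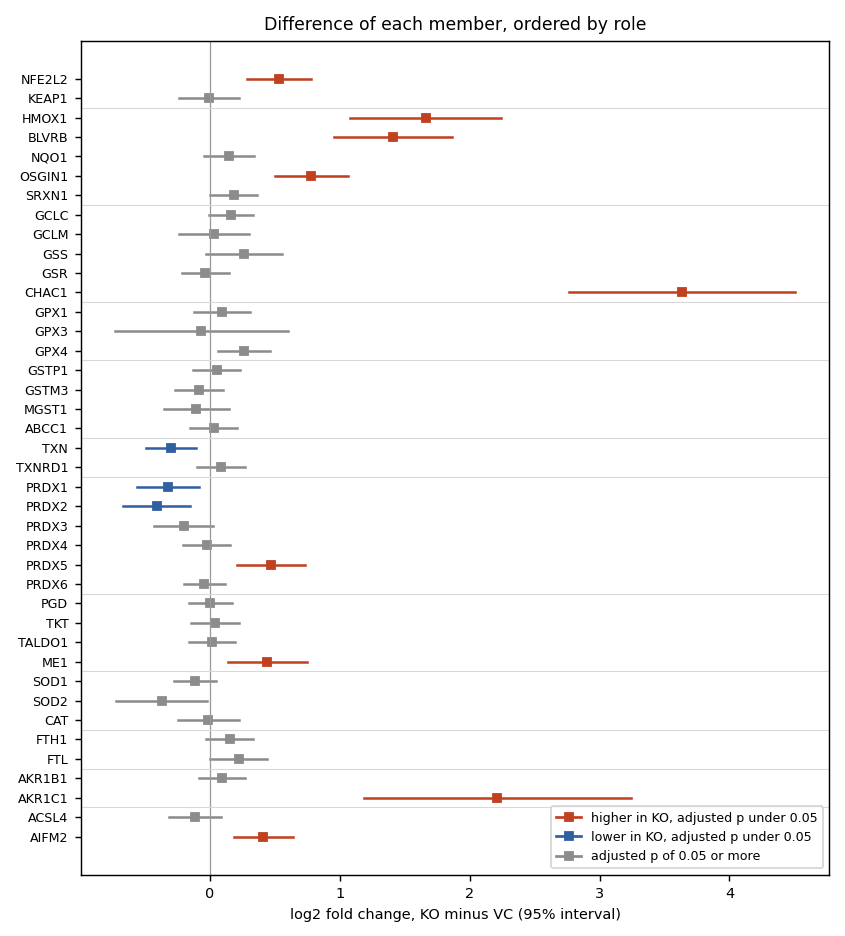
Log2 fold change of each member, KO minus VC (squares), with its 95% interval from limma's moderated model (lines), in order of role with grey lines between roles. The 9 members higher at an adjusted p under 0.05 are red, the 3 lower are blue, and the 28 grey members include PGD, TKT and TALDO1 with intervals close to 0.

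Neither the superoxide and hydrogen peroxide enzymes nor the ferritin chains passed the test. SOD2, the mitochondrial manganese superoxide dismutase and a known NF-kB target, had log2 signals of 2.50, 2.46 and 2.40 in VC and 2.37, 1.96 and 1.92 in KO. The KO libraries were all lower, KO replicate 1 only just, with a log2 fold change of -0.37 (95% interval -0.72 to -0.022, adjusted p = 0.0907). Without KO replicate 1 the adjusted p of SOD2 was 0.00823, and when genes below the median of mean signal were left out it was 0.0329. SOD1, the cytosolic enzyme, had -0.12 (95% interval -0.27 to 0.044, adjusted p = 0.206) with all KO libraries lower, and CAT, catalase, had -0.012 (95% interval -0.25 to 0.22, adjusted p = 0.93), which turned to 0.072 with median-centred libraries. The iron-storage chains FTH1 and FTL had 0.15 (adjusted p = 0.151) and 0.22 (adjusted p = 0.106), each with every KO library above every VC library, and both passed with median-centred libraries (0.0462 and 0.0417).

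AKR1C1, an aldo-keto reductase that reduces steroids and lipid aldehydes and is among the most inducible NRF2 targets in human cells, had low log2 signals of -5.66, -6.83 and -6.23 in VC and -4.56, -3.45 and -4.07 in KO. The groups did not overlap and the log2 fold change was 2.21 (SE 0.41, adjusted p = 0.0183), or 4.64-fold. On the log2(signal + 1) scale the difference was 0.070 (adjusted p = 0.0735), and the call was lost without VC replicate 2 (0.0503), VC replicate 3 (0.0636) or KO replicate 3 (0.0585). AKR1B1, aldose reductase, had 0.090 (95% interval -0.086 to 0.27, adjusted p = 0.354).

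For ferroptosis, AIFM2 rose and ACSL4 did not pass the test. AIFM2 encodes FSP1, which keeps coenzyme Q reduced and halts lipid peroxidation without glutathione, and had log2 signals of 3.08, 3.01 and 2.91 in VC and 3.29, 3.47 and 3.47 in KO. The log2 fold change was 0.41 (SE 0.090, adjusted p = 0.0263), with every KO library above every VC library. Its adjusted p was 0.0131 without KO replicate 1 and 0.0573 to 0.0895 without any other single library. ACSL4, which loads polyunsaturated fatty acids into phospholipids, had -0.11 (95% interval -0.32 to 0.089, adjusted p = 0.312), with all KO libraries lower.

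A list of 102 further genes of the same pathways, written with earlier results of these data known, was examined beside the members. That choice may have affected the numbers below. Of the listed genes 97 were tested. In KO, 26 of them were higher and 12 lower (39.2% called, against 32.9% of all tested genes), with a median log2 fold change of 0.11. Around NRF2 itself, the small MAF partner MAFF had log2 signals of 3.23, 3.06 and 3.27 in VC and 4.57, 5.11 and 4.71 in KO (log2 fold change 1.61, adjusted p = 0.00815). MAFG rose by 0.37 (adjusted p = 0.0369), and MAFK had 0.40 (adjusted p = 0.061, and 0.0462 without KO replicate 1). The competitor BACH1 also rose, from 2.91, 2.96 and 2.93 to 3.35, 3.66 and 3.32 (log2 fold change 0.51, adjusted p = 0.0267). CUL3, the scaffold of the ligase that degrades NRF2, had -0.45 (95% interval -0.80 to -0.11, adjusted p = 0.0553, and 0.026 without KO replicate 1), and SQSTM1, the autophagy adaptor that can sequester KEAP1, rose by 1.02 (adjusted p = 0.0079). The related factor NFE2L1 rose by 0.42 (adjusted p = 0.015). The calls of MAFG and BACH1 were lost in the same 4 of the 6 fits that left out a library, those without VC replicate 1, 2 or 3 or KO replicate 3 (0.0747 to 0.108 for MAFG and 0.0552 to 0.0855 for BACH1), and that of NFE2L1 without VC replicate 1 (0.0598), VC replicate 3 (0.0648) or KO replicate 3 (0.053).

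For the supply of glutathione's building blocks, SLC7A11, the cystine importer, had log2 signals of 1.49, 1.66 and 1.58 in VC and 3.22, 3.56 and 2.79 in KO (log2 fold change 1.61, adjusted p = 0.0101). The order of its KO libraries, with KO replicate 2 highest and KO replicate 3 lowest, was also that of CHAC1 and SESN2. In SLC6A9 and SELENOM KO replicate 2 was highest too, but KO replicate 1 was lowest. Over the 17698 genes with 6 values KO replicate 2 was the highest KO library in 31.9% and KO replicate 3 the lowest in 29.6%. The share of genes with both was not counted. The largest rises among genes of this list that passed were those of SESN2, a stress-induced sestrin (2.92, adjusted p = 0.00834), SLC6A9, a glycine transporter (2.54, adjusted p = 0.00847), SELENOM, a selenoprotein of the endoplasmic reticulum (1.62, adjusted p = 0.00815), and SLC7A11, and each remained under 0.05 with any single library left out. The largest falls among genes that passed were those of SLC40A1, the iron exporter ferroportin (-1.09, adjusted p = 0.0259, but -0.36 on the log2(signal + 1) scale, where the other 3 fell more), ABCC5, an exporter of organic anions (-0.84, adjusted p = 0.0163), GGCT, the γ-glutamylcyclotransferase that acts on γ-glutamyl dipeptides (-0.68, adjusted p = 0.00815), and GLRX5, a mitochondrial glutaredoxin of iron-sulfur assembly (-0.57, adjusted p = 0.0172). GLRX5 lies on chromosome 14, where the median log2 fold change of tested genes was -0.39, and MAFF and SELENOM lie on chromosome 22, where it was 0.29. GGCT remained under 0.05 with any library left out, and SLC40A1, ABCC5 and GLRX5 did so only without KO replicate 1 or KO replicate 2, with adjusted p of 0.0502 to 0.079, 0.0508 to 0.0602 and 0.0534 to 0.0652 in the other fits. TXNIP, the thioredoxin inhibitor, had 2.18, 0.20 and 1.75 in KO against 1.47, 1.60 and 1.49 in VC, so its KO libraries lay on both sides of VC (log2 fold change -0.14, 95% interval -1.46 to 1.18). The sign of TXNIP turned to 0.45 without KO replicate 2.

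**Figure D4:**
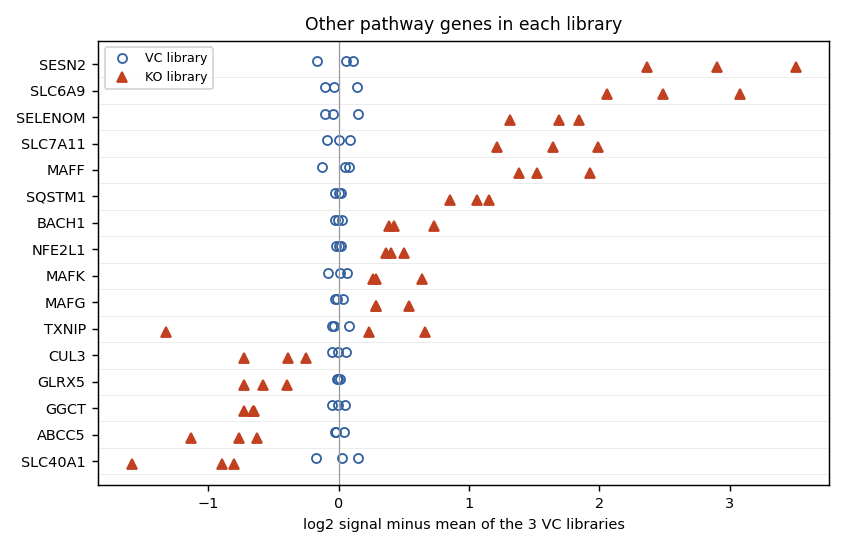
Log2 signal of other pathway genes in each library, minus the mean of the 3 VC libraries (x axis), with open circles for VC and filled triangles for KO, ordered by log2 fold change. SESN2, SLC6A9, SELENOM, SLC7A11, MAFF and SQSTM1 stand to the right in every KO library, and the 3 KO libraries of TXNIP lie on both sides of the VC libraries.

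The targeted gene, CNTNAP4, was near the low end of the signals in VC replicate 3 (-7.18) and had no value in the other 5 libraries, so these files give no check of the deletion. Values were present for 20333 to 21041 genes per library, and the libraries had been quantile-normalized to 1 common range, so the reads behind each value are unknown. Of 10 bone-forming markers 7 had a value in every library and IBSP had none in any, and all 5 mesenchymal markers had a value in every library. Among the mesenchymal markers VIM was at 10.3 to 10.9, but THY1 reached only -4.42 at its highest. The bone-forming marker COL1A2 reached only -4.59 at its highest, SP7 had a value in 4 libraries and BGLAP had a value in 2. Of the white blood cell markers CD3E was at -3.29 or lower where it had one, and PTPRC and the endothelial PECAM1 were at -4.35 or lower in every library. CD68, a lysosomal protein used as a macrophage marker, lay at up to 4.51 in VC and up to 6.46 in KO. The epithelial marker EPCAM lay at up to 1.79 in VC and up to 1.16 in KO. The part of CD68 and EPCAM in the results was not tested. Of the other epithelial markers CDH1 had a value only in VC replicate 2 (-8.04), and KRT19 reached only -2.39 at its highest. VC replicate 2 was the highest or lowest VC library in 35 of the 40 members, with a median distance of 0.093 from the mean of the others, whose own median gap was 0.025. Over the 17698 genes with 6 values it was the lowest VC library in 48.1% and the highest in 31.0%, with a distance of 0.124 and a gap of 0.0705. KO replicate 1 was the lowest KO library in 26.6% of these genes and the highest in 53.5%, with a distance of 0.228 and a gap of 0.165. For KO replicate 2 the distance was 0.212 and the gap 0.192. Among the members the distances of KO replicates 1 and 2 were 0.107 and 0.108. Several members have processed pseudogenes or close relatives, among them FTH1, FTL, TXN, PRDX1, GPX1, GSTM3 and AKR1C1, and how reads shared between such copies were counted is not given in the sources used here.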

How the data were processed

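Gene expression in 3 VC and 3 KO RNA-seq libraries of 143B cells was compared. The authors deposited log2 gene signals, 1 column per library, with the same lowest, median and highest value in each, as after quantile normalization. The submitters' processing notes name CASAVA, STAR, Partek and GRCh38.p13, and the linear unit is not given in the sources used here. Missing values were kept missing. Read depth is unknown, so no counting error could be given, and p-values measure the spread between these RNA samples, which may be technical.

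The 19306 of 54308 genes with at least 2 values per group were fitted with limma 3.58.1 in R 4.3.3 (KO minus VC, 6 libraries, no covariate), with Benjamini-Hochberg adjustment over all of them and a threshold of 0.05. The script was tested on simulated data. Members and lists were chosen with earlier results of these data known. From the pathway list the named genes were 10 set by symbol, of which 1 is not reported here, and the 4 largest rises and 4 largest falls among genes that passed, had 6 values and had groups that did not overlap. Alternatives were other filters, centring, quantile normalization, an offset of 1, other moderation, library weights, a replicate block, a 2-fold minimum and leaving out each library. Promoter windows came from RefSeq (GRCh38.p14).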

Additional observations from a re-analysis of the deposited data

How the results depend on the processing

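Read depth is unknown, which limits what can be said of genes with low signals such as AKR1C1, and the 6 libraries give few degrees of freedom. Alternatives that moved a count by less than 1.5 times are not listed, nor are all the counts by direction over all tested genes.

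Among the members 4 to 14 genes passed with 1 library left out (4 to 10 higher and 0 to 4 lower), with 4 at a 2-fold minimum (4 higher, 0 lower) and 26 with library weights (16 higher, 10 lower). Median-centred libraries left 0 members lower, and over all tested genes 3005 were then higher and 3233 lower. Among the other pathway genes 9 to 53 passed with 1 library left out (8 to 31 higher and 1 to 22 lower), 11 at a 2-fold minimum (10 higher, 1 lower) and 77 with library weights (44 higher, 33 lower). Among all tested genes the numbers were 1223 to 8669, 1840 and 13936. KO replicate 3 had a library weight of 86.5 against 0.132 to 1.5 for the others, and the cause of the other changes was not tested.

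The replicate number as a block left 2 members (2 higher, 0 lower), 8 other pathway genes (7 higher, 1 lower) and 1533 genes in all, with OSGIN1 (adjusted p = 0.0486) and CHAC1 (0.0479) as the members that passed by limma. Deviations of same-numbered libraries had correlations of 0.0226, 0.00509 and -0.00736, and those of the other pairs ran from -0.0304 to 0.0314. With 3 libraries per group these values cannot show whether same-numbered samples were prepared together. The block is therefore given beside the main fit, which has none. Not every library correlated best with its own number.

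The members' median was 0.1282 with median-centred libraries, 0.0919 with further quantile normalization, 0.0235 with library weights and 0.0337 to 0.104 with 1 library left out. That of the other pathway genes was 0.1913, 0.1651, 0.089 and 0.039 to 0.1331, and 0.0456 with 1 added to the linear signal. The median of all tested genes was -0.0419 with median-centred libraries and -0.0461 with further quantile normalization, against -0.1252 in the main fit.

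Signs turned only among genes that did not pass the test. With median-centred libraries the log2 fold change became 0.0779 for KEAP1, 0.0479 for GSR, 0.0168 for GPX3, 0.0011 for GSTM3, 0.0604 for PRDX4, 0.0416 for PRDX6 and 0.0719 for CAT. Further quantile normalization gave 0.0197 for KEAP1, 0.1159 for GPX3 and 0.0206 for CAT. Library weights gave 0.0324 for KEAP1, -0.0602 for GCLM, -0.007 for GSTP1, -0.041 for TALDO1 and 0.2586 for TXNIP. With 1 library left out the ranges were -0.0546 to 0.0566 for KEAP1, -0.0134 to 0.1061 for GCLM, -0.2407 to 0.1445 for GPX3, -0.0136 to 0.0632 for ABCC1, -0.0589 to 0.0188 for PRDX4, -0.0117 to 0.0283 for PGD, -0.003 to 0.0663 for TKT, -0.0185 to 0.0408 for TALDO1, -0.0756 to 0.0436 for CAT and -0.542 to 0.4491 for TXNIP.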
